A study of Mus musculus with 27 samples.

Results

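AP-1 is a transcription factor made of pairs of basic leucine zipper proteins of the Fos, Jun and ATF families, and 8 genes that encode such proteins are described here in the mouse uterus after estradiol: Fos, Fosb, Fosl1, Fosl2, Jun, Junb, Jund and Atf3. Their probes were found by the gene name in the scanner files of a whole-genome expression array, and Jund, which those files call Jund1, through its accession. The 8 genes have 10 probes, with 2 each for Fosl2 and Junb, and all 8 genes passed the filter on dim probes, as did 21866 genes in all. The arrays cover 9 groups of 3: ovariectomised female mice, 8 weeks old and rested for 1 to 2 weeks after surgery, of the inbred strains C57BL/6 (B6) and C3H/HeJ (C3H) and of the F1 hybrid of B6 and C3H. Each kind of mouse had an intraperitoneal injection of 17β-estradiol (E2) at 40.0 µg/kg with the uterus taken 2 h or 24 h later, or of the ethanol and saline vehicle, for which the labels give no time. Every animal, vehicle controls included, lacked its ovaries, so the comparison is of a single estradiol dose against the hormone-deprived uterus. The labels do not tie arrays to single animals, so the p-values measure the spread between these 27 samples.

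A level is the log2 of a probe's processed signal minus the log2 signal at the 75th percentile of its array, so that 0 is that percentile and 1 is a doubling. Levels are compared between groups for the same probe, not between genes. A difference is called where its limma p-value, adjusted by Benjamini-Hochberg over all 21866 genes, is under 0.05. The uterus was taken whole, so fewer cells of a type and less RNA per cell cannot be told apart.

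Fos proteins do not pair with each other and bind DNA stably only in a pair with a Jun protein, while Jun proteins also pair among themselves and with Atf3. Fos, Fosb, Junb and Atf3 are textbook immediate early genes, whose transcription starts within minutes of a stimulus without new protein synthesis, and Fosl1 (Fra-1) and Fosl2 (Fra-2) are usually induced later and hold less activating capacity than Fos. In the rodent uterus, induction of Fos by estrogen is a classic early response of the epithelium. The estrogen receptor can act through DNA that it binds itself or through AP-1 proteins already on DNA.

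RefSeq's promoter table (GRCm38.p6) lists 7 of the 8 genes, all but Fosl1, and the 120 bases before the listed start are printed for 5 of them, 5′ to 3′ on the strand of the gene. They were chosen because they hold a motif of the ATF/CREB or AP-1 kind. Capitals mark TGACG (the core shared by CREB and ATF sites, CGTCA on the opposite strand), TGACATCA (a site bound by Jun and ATF pairs) and TATAAA.
Fos, chr12:85473770-85473889, plus strand: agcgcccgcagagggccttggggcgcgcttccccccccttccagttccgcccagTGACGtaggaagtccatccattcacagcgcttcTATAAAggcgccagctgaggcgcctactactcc
Fosb, chr7:19310046-19310165, minus strand: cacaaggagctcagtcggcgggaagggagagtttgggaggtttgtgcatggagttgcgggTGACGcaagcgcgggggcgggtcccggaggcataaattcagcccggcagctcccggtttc
Junb, chr8:84978749-84978868, minus strand: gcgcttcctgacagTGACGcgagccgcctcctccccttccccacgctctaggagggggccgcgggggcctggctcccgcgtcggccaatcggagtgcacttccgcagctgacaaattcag
Jun, chr4:95052223-95052342, minus strand: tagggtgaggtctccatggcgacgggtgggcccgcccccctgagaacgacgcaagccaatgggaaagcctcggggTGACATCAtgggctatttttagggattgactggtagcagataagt
Atf3, chr1:191183334-191183453, minus strand: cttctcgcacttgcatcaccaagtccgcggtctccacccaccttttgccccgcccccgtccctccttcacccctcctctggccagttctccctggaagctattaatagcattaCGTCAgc

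The motifs were searched on both strands of the 250 bases before the start, in the members and in all 32851 promoters of the table. TGACG was found in 4 of the 7 listed members, against 17.8% of all promoters: in Fos at 129 and at 66 bases before the start, in Fosb at 60, in Junb at 106 and in Atf3 at 7 on the opposite strand. Jun held TGACATCA at 45 bases before its start, a sequence present in 2.93% of all promoters, and TATAAA stood in Fos alone among the members, at 33 bases, against 12.4% of all. The palindrome TGACGTCA, which contains TGACG (1.55% of all promoters), the AP-1 site TGAGTCA (4.46%), the estrogen response element (GGTCA and TGACC with 3 bases between, 0.0639%) and the CArG box of serum response factor (1.47%) were in none of the 7 windows. Fosl2 and Jund held none of the motifs searched. A match is a description of these letters, and the absence of one says only that they are not in this window.

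By the probes used for the genes, all 8 members were higher at 2 h after estradiol than in vehicle in B6, in C3H and in F1. The 3 treated and the 3 vehicle arrays of a strain did not overlap for any member. Of all genes tested, 22.7% were called higher in B6, 23.9% in C3H and 22.9% in F1, and 25.1%, 27.9% and 25.6% had all treated arrays above all vehicle arrays. The median change of the 8 members was 2.87 in B6, 2.88 in C3H and 3.07 in F1 (log2), beside medians over all genes of -0.0931, -0.127 and -0.117. The size of the rise differed widely within the family, with Fos at the high end and Jun at the low end in B6 and C3H. The normexp alternative corrects the background and adds an offset of 50 units to each signal, which by itself shrinks the changes of dim probes. With it Fosl1 rose by 2.92, 2.68 and 3.09 and Fosb by 2.57, 2.30 and 2.56 (B6, C3H and F1). These rises were below those of Atf3, at 3.76, 3.38 and 3.88. The parts of the correction and of the offset were not told apart.

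**Figure D1:**
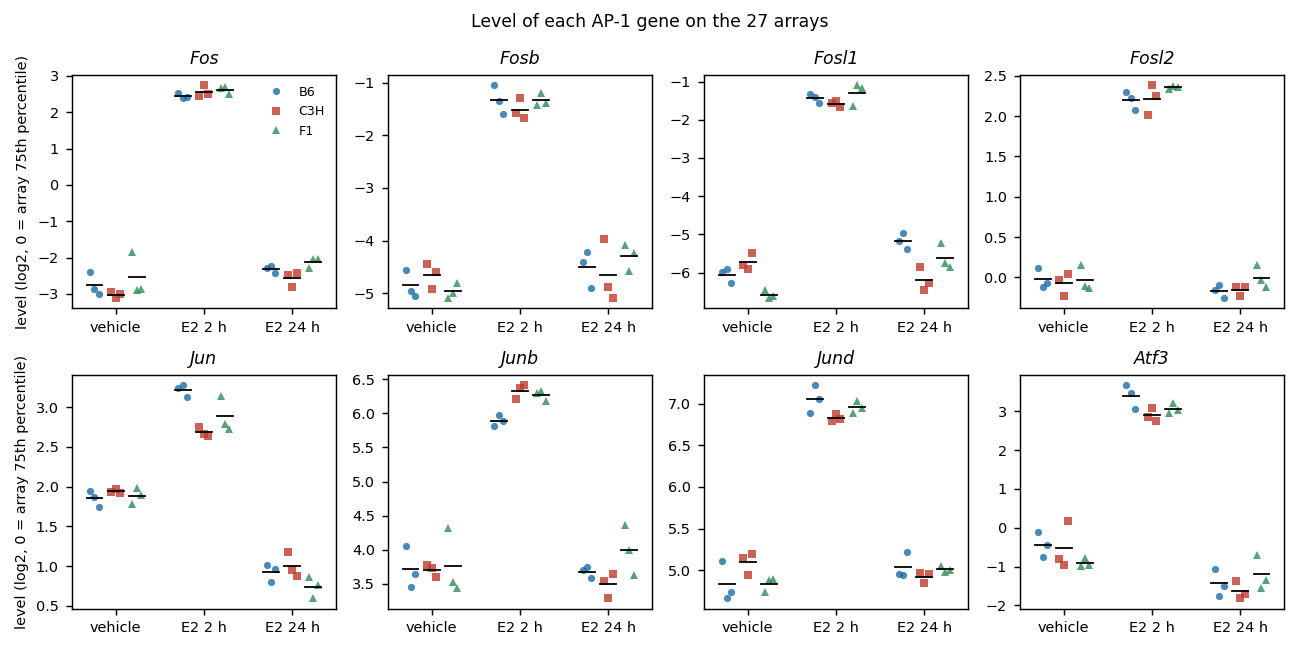
Level of each of the 8 members on each of the 27 arrays (y axis, log2 of processed signal relative to the 75th percentile of the array), by strain and treatment; points are arrays and bars are means of 3. The 2 h arrays stand above all vehicle and 24 h arrays in each panel, and Jun alone has all 24 h arrays below all vehicle arrays in the 3 strains.

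Fos encodes the founding member of the Fos proteins and its probe, spotted 10 times on each array, lies at chr12:83478431-83478490 (mm7, from the files). The vehicle arrays gave Fos levels of -2.41, -2.85 and -3.00 in B6 and of -2.96, -3.11 and -3.00 in C3H, and F1 had -1.86, -2.90 and -2.86. At 2 h after estradiol they were 2.53, 2.39 and 2.42 in B6 and 2.44, 2.75 and 2.51 in C3H, and F1 had 2.66, 2.70 and 2.52. The first F1 vehicle array was the highest of the 9 vehicle arrays, and still lay far below every treated array. The rise was 36.8-fold in B6 (log2 5.20, SE 0.20, limma adjusted p = 9.65e-15), 48.1-fold in C3H (5.59, adjusted p = 3.29e-15) and 35.8-fold in F1 (5.16, adjusted p = 1.04e-14). By size of rise Fos ranked 28 of 21866 genes in B6, 16 in C3H and 26 in F1.

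Fosl1 encodes Fra-1, a Fos protein without the C-terminal activation domain of Fos. Its probe (chr19:5350302-5350361, mm7) was dim in vehicle, at -5.99, -5.91 and -6.28 in B6 and -5.79, -5.91 and -5.48 in C3H, and F1 had -6.45, -6.66 and -6.62, being well above background there on 2 of the 3 arrays. Its processed signal on these arrays was 17.7 to 22.4 units in B6, 22.1 to 29.6 in C3H and 11.98 to 14.4 in F1. At 2 h the levels were -1.32, -1.41 and -1.57 in B6 and -1.56, -1.50 and -1.68 in C3H, and F1 had -1.65, -1.09 and -1.17. The treated levels thus lay close together in the 3 kinds of mice, whereas the vehicle levels of F1 were all below those of C3H, as for 22.9% of all genes. The rise was 24.7-fold in B6 (log2 4.63, SE 0.18), 17.7-fold in C3H (4.15) and 38.6-fold in F1 (5.27), with limma adjusted p-values of 1.53e-14, 7.55e-14 and 2.02e-15.

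Fosb, whose full-length product is an activator, was at -4.56, -4.95 and -5.05 in B6 vehicle, -4.44, -4.92 and -4.59 in C3H vehicle and -5.09, -4.99 and -4.80 in F1 vehicle. It reached -1.05, -1.34 and -1.60 at 2 h in B6 and -1.58, -1.30 and -1.66 in C3H, and F1 had -1.42, -1.20 and -1.38. The rise was 11.5-fold in B6 (log2 3.53, SE 0.23), 8.81-fold in C3H (3.14) and 12.4-fold in F1 (3.63), and the treated arrays of the 3 strains overlapped. Fosl2, which encodes Fra-2, ran from -0.23 to 0.15 over the 9 vehicle arrays and from 2.02 to 2.38 over the 9 arrays at 2 h. These levels are of the probe used for the gene. By that probe its rise was the most even across strains, 2.22 in B6, 2.29 in C3H and 2.38 in F1 (log2, SE 0.10). The second Fosl2 probe, described below, was not even, with changes of 1.80, -1.22 and 0.29.

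The Jun genes rose less than Fos did. Jun, which encodes c-Jun, was at 1.94, 1.86 and 1.75 in B6 vehicle, 1.94, 1.97 and 1.92 in C3H vehicle and 1.78, 1.99 and 1.89 in F1 vehicle. At 2 h it was at 3.24, 3.27 and 3.13 in B6 and 2.75, 2.67 and 2.63 in C3H, and F1 had 3.14, 2.78 and 2.73. All B6 arrays at 2 h were above all C3H arrays, and the F1 arrays overlapped both. The share of all genes with such a separation of strains at 2 h was not counted. The rise was 2.57-fold in B6 (log2 1.36, SE 0.10, limma adjusted p = 2.75e-10), 1.67-fold in C3H (0.74, adjusted p = 1.78e-06) and 2.00-fold in F1 (1.00, adjusted p = 2.46e-08). Jun ranked 946 of 21866 genes by size of rise in B6, 2541 in C3H and 1513 in F1.

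Junb, a Jun protein that activates less strongly than c-Jun and can oppose it, was at 4.06, 3.46 and 3.65 in B6 vehicle, 3.78, 3.73 and 3.61 in C3H vehicle and 4.32, 3.53 and 3.43 in F1 vehicle. At 2 h its levels were 5.81, 5.97 and 5.90 in B6 and 6.21, 6.37 and 6.41 in C3H, and F1 had 6.30, 6.32 and 6.18. The B6 arrays were below those of C3H and F1 at 2 h without overlap, and the share of all genes so separated was not counted. The difference of the 2 h response between C3H and B6 was not called (0.45, limma adjusted p = 0.444). The rise was 4.50-fold in B6 (log2 2.17, SE 0.19), 6.16-fold in C3H (2.62) and 5.69-fold in F1 (2.51). The second Junb probe, which overlaps the first by position, gave 2.18, 2.67 and 2.55.

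Jund, the Jun gene that is usually expressed at a steady level in resting cells, was at 5.11, 4.67 and 4.74 in B6 vehicle, 5.15, 4.95 and 5.20 in C3H vehicle and 4.75, 4.88 and 4.89 in F1 vehicle. At 2 h it was at 6.89, 7.22 and 7.05 in B6 and 6.79, 6.87 and 6.81 in C3H, and F1 had 6.89, 7.03 and 6.94. Jund moved with the inducible members in this tissue, by 4.64-fold in B6 (log2 2.21, SE 0.10), 3.31-fold in C3H (1.73) and 4.33-fold in F1 (2.11).

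Atf3, a stress-induced partner of Jun proteins that represses as a pair with itself, was at -0.12, -0.76 and -0.45 in B6 vehicle, -0.79, -0.97 and 0.18 in C3H vehicle and -0.97, -0.78 and -0.96 in F1 vehicle. It reached 3.67, 3.46 and 3.06 at 2 h in B6 and 2.86, 3.09 and 2.76 in C3H, and F1 had 2.96, 3.21 and 3.03. The third C3H vehicle array was the highest of the 9 vehicle arrays. The rise was 14.3-fold in B6 (log2 3.84, SE 0.26), 10.8-fold in C3H (3.43) and 15.7-fold in F1 (3.97).

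**Figure D2:**
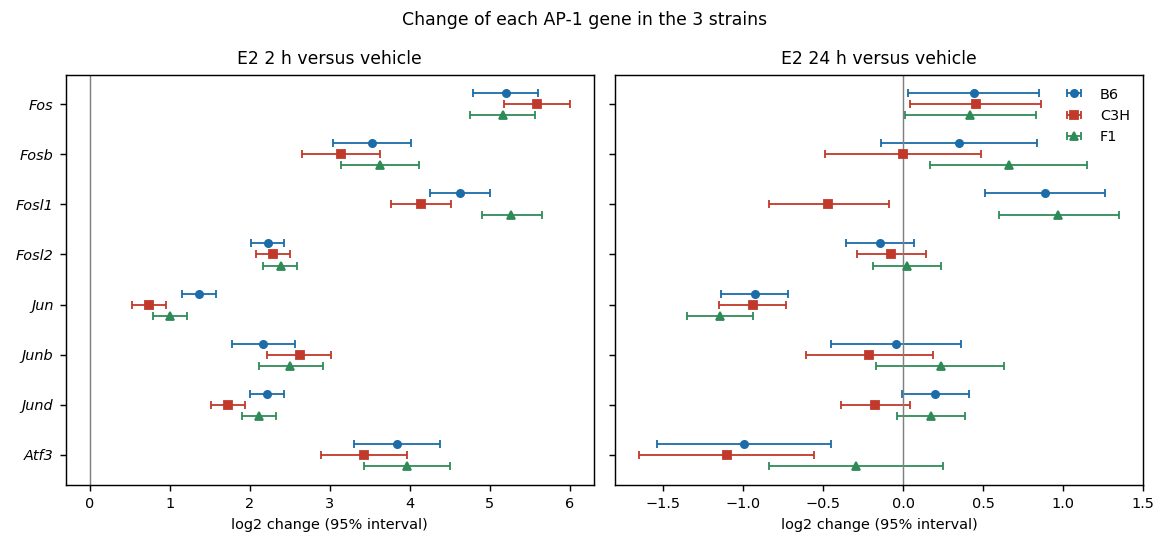
Change of each member against vehicle (x axis, log2) at 2 h and at 24 h in the 3 strains, as the limma estimate with its 95% confidence interval. At 2 h all estimates lie above 0, from 0.74 for Jun in C3H to 5.59 for Fos in C3H, and at 24 h the Jun estimates lie below 0 in each strain.

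The arrays were run on 7 slides of up to 4 arrays. In B6, 1 array at 2 h shared its slide with the 3 vehicle arrays, and it differed from their mean by 5.28 for Fos, 4.74 for Fosl1, 4.11 for Atf3 and 1.39 for Jun (log2). In F1, the 3 arrays at 2 h shared a slide with 1 vehicle array, and their difference from it was 5.48 for Fos, 5.32 for Fosl1, 4.02 for Atf3 and 1.00 for Jun. The other members differed in the same direction on both slides, by 2.05 to 3.81 in B6 and 2.06 to 3.47 in F1. No slide held both C3H vehicle and C3H 2 h arrays, so slide and treatment cannot be told apart for that rise.

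Between 2 h and 24 h every member fell in every strain by the probes used for the genes, with no overlap between the 2 times. Of all genes, 32.8% were called lower in B6, 35.7% in C3H and 30.2% in F1, and 34.4%, 34.9% and 31.8% did not overlap in that direction. The change was -4.76 in B6, -5.14 in C3H and -4.75 in F1 for Fos (log2) and -4.83, -4.53 and -4.26 for Atf3. For Jun it was -2.29, -1.68 and -2.14, the smallest fall of the family in C3H, and for Jund it was -2.01, -1.90 and -1.94, the smallest in B6 and F1. On the slides that held both times, 2 arrays of each time in B6 and 1 array at 24 h with 3 at 2 h in C3H, Fos differed by -4.67 and -5.05 and Jun by -2.30 and -1.51. No slide held both F1 2 h and F1 24 h arrays, so slide and time cannot be told apart for the F1 fall.

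At 24 h the family was split around its vehicle level. Jun fell below vehicle in all 3 strains, and Atf3 fell below it in B6 and C3H. Fosl1 was higher than in vehicle in B6 and F1 and lower in C3H. Fosl2, by the probe used for the gene, Junb and Jund were not called in any strain. In B6, 1 member was called higher (30.8% of all genes) and 2 lower (37.3%). In C3H, 1 was higher (26.9% of all genes) and 3 lower (40.4%), and in F1, 2 were higher (31.6%) and 1 lower (36.9%). These counts are no larger a share of the members than of all genes. The members' median change was 0.08 in B6, -0.19 in C3H and 0.20 in F1, beside -0.0556, -0.163 and -0.0391 over all genes. No slide held both vehicle and 24 h arrays of a strain. With slide as a fixed term only the B6 change at 24 h could be estimated. Slide and treatment therefore cannot be told apart for the 24 h changes in C3H and F1.

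Jun levels at 24 h were 1.02, 0.80 and 0.96 in B6 and 1.18, 0.96 and 0.87 in C3H, and F1 had 0.87, 0.60 and 0.76. Each of these 9 arrays was below each of the 9 vehicle arrays, of which the lowest was at 1.75. Within a strain, 37.5% of all genes in B6, 42.1% in C3H and 39% in F1 had all 24 h arrays below all vehicle arrays. The change of Jun against vehicle was -0.93 in B6 (log2, SE 0.10, limma adjusted p = 5.79e-08), -0.94 in C3H (adjusted p = 7.15e-08) and -1.14 in F1 (adjusted p = 2.95e-09). The order of its 9 group means therefore had 3 blocks that did not overlap: the 2 h groups, the vehicle groups and the 24 h groups.

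Atf3 was at -1.06, -1.75 and -1.50 in B6 at 24 h, -1.38, -1.81 and -1.70 in C3H, and F1 had -0.72, -1.55 and -1.33. It lay below all vehicle arrays of the strain in B6 and C3H, as did 37.5% and 42.1% of all genes, and overlapped vehicle in F1. Its change was -0.99 in B6 (log2, SE 0.26, limma adjusted p = 0.00201), -1.10 in C3H (adjusted p = 0.000900) and -0.29 in F1 (adjusted p = 0.323). With slide as a fixed term the B6 change was -0.56 (adjusted p = 0.396).

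Fosl1 was at -5.18, -4.96 and -5.38 in B6 at 24 h, -5.84, -6.46 and -6.27 in C3H, and F1 had -5.23, -5.74 and -5.84. The 24 h arrays were above all vehicle arrays of their strain in B6 and F1, as for 32.5% and 34.9% of all genes, and overlapped vehicle in C3H. Its change was 0.89 in B6 (log2, SE 0.18, limma adjusted p = 0.000176), 0.97 in F1 (adjusted p = 7.16e-05) and -0.47 in C3H (adjusted p = 0.0274). With normexp it was 0.30 in B6 (adjusted p = 0.0127) and 0.20 in F1, where the call was lost (adjusted p = 0.0941). The C3H call was lost in 8 of 16 alternative analyses, where the change ran from -0.05 to -0.64 over all 16. It was lost without C3H 24 h replicate 2 (-0.33, adjusted p = 0.147) or replicate 3 (-0.43, adjusted p = 0.0782) and without C3H vehicle replicate 3 (-0.34, adjusted p = 0.134). The call was also lost with median centring (-0.27, limma adjusted p = 0.223), quantile normalization (-0.05, adjusted p = 0.823) and no scaling (-0.33, adjusted p = 0.134). The same held with normexp (-0.19, adjusted p = 0.102) and with only the groups of the comparison (-0.47, adjusted p = 0.0774).

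Fos at 24 h was a little above vehicle in each strain, by 0.44 in B6, 0.45 in C3H and 0.42 in F1 (log2, SE 0.20), with limma adjusted p-values of 0.0531, 0.0477 and 0.0661. The 3 values lie on either side of the threshold with almost the same size, and the C3H call was lost in 8 of 17 alternatives, among them those without C3H 24 h replicate 1 or 3 and without each of the 3 C3H vehicle replicates (0.38 to 0.49, limma adjusted p from 0.0673 to 0.149). Fos was called in B6 without B6 vehicle replicate 1 (0.61, adjusted p = 0.0129) and in F1 without F1 vehicle replicate 1 (0.76, adjusted p = 0.000113). Other scalings also called Fos higher in B6 and F1. With median centring the values were 0.68 and 0.63 (limma adjusted p = 0.00742 and 0.0127). Quantile normalization gave 0.65 and 0.56 (adjusted p = 0.00991 and 0.0241), and no scaling gave 0.51 and 0.59 (adjusted p = 0.0321 and 0.0145). The B6 value was 0.44 (limma adjusted p = 0.0474) with the replicate number as a block. Fosb differed from vehicle by 0.35 in B6 (0.97 with slide as a fixed term, limma adjusted p = 0.0117), 0.00 in C3H and 0.66 in F1, of which the F1 value was called (limma adjusted p = 0.0173), but not without F1 24 h replicate 1 (0.56, adjusted p = 0.0721) or F1 vehicle replicate 1 (0.60, adjusted p = 0.0575). Fosb in B6 was also called with median centring (0.59, limma adjusted p = 0.0335) and with quantile normalization (0.62, adjusted p = 0.0183). By the probes used for the genes, Fosl2, Junb and Jund differed from vehicle by -0.21 to 0.23 over the 3 strains. The second Fosl2 probe differed by -1.58 in C3H (limma adjusted p = 0.000946). Calls appeared for Jund in B6 without B6 vehicle replicate 1 (0.33, adjusted p = 0.00418) and for Junb in F1 without F1 vehicle replicate 1 (0.51, adjusted p = 0.0119). The direction of Jund depended on scaling. It was called higher in B6 and F1 with median centring (0.44 and 0.38, limma adjusted p = 0.00133 and 0.00409) and without scaling (0.27 and 0.35). With quantile normalization Jund was called lower in B6 (-0.24, limma adjusted p = 0.0128), F1 (-0.20, adjusted p = 0.037) and C3H (-0.45, adjusted p = 6.45e-05).

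In vehicle, by the probes used for the genes, Fosl1 was the single member called between strains. None was called between C3H and B6, where 24.4% of all genes were, or between F1 and B6, where 12.6% were; at an unadjusted limma p under 0.05 there was 1 member in each. Fosl1 was lower in F1 than in C3H by 0.85 (log2, SE 0.18, limma adjusted p = 0.00283), the single member called there, where 14.3% of all genes were called. It was also 0.68 below the mean of the B6 and C3H levels in vehicle (adjusted p = 0.0128, 5.37% of all genes called). Vehicle arrays of different strains shared no slide. With slide as a fixed term neither of these Fosl1 differences could be estimated, so slide and strain cannot be told apart in them. With normexp and its offset of 50 units, which shrinks differences of dim probes, these Fosl1 differences were -0.16 (limma adjusted p = 0.384) and -0.11 (adjusted p = 0.668). The mid-parent call was also lost without F1 vehicle replicate 2 (-0.64, adjusted p = 0.0723) or replicate 3 (-0.66, adjusted p = 0.0568). Jund was called higher in C3H than in B6 without B6 vehicle replicate 1 (0.39, limma adjusted p = 0.00430) or C3H vehicle replicate 2 (0.33, adjusted p = 0.0374), while with slide as a fixed term its difference was -0.26 (adjusted p = 0.565). With that term Fosb differed by 1.21 between C3H and B6 (adjusted p = 0.0551, 0.20 without it) and Fosl1 by 0.81 (adjusted p = 0.260). Fos was called higher in F1 than in C3H without F1 vehicle replicate 2 (0.67, adjusted p = 0.0460). No member was called against the mid-parent level at 2 h, where 11.6% of all genes were, or at 24 h, where 2.84% were, and at an unadjusted p under 0.05 there were 0 and 2.

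The series asks whether the estradiol response is under genetic control, which the difference between the responses of 2 strains addresses. At 2 h the response of Jun was smaller in C3H than in B6 by 0.62 (log2, SE 0.14, 95% confidence interval -0.91 to -0.32, limma adjusted p = 0.0209), and no other member was called between these strains. Of all genes, 2.24% were called in this comparison. The call was lost without scaling between arrays (-0.52, limma adjusted p = 0.0775). It was lost without B6 2 h replicate 2 (adjusted p = 0.0567), B6 vehicle replicate 3 (0.0574), C3H 2 h replicate 3 (0.0529) or C3H vehicle replicate 2 (0.0532), with changes of -0.57 to -0.61 (limma adjusted p each). Slide and treatment cannot be told apart in C3H at 2 h, so they cannot be in this difference either.

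Jund pointed the same way as Jun, with a 2 h response 0.49 smaller in C3H than in B6 (95% interval -0.79 to -0.18, limma adjusted p = 0.0882), and was called without B6 vehicle replicate 1 (-0.62, adjusted p = 0.0122). Fosl1 had a 2 h response 1.12 larger in F1 than in C3H (interval 0.59 to 1.65, adjusted p = 0.0707), called without F1 2 h replicate 1 (1.30, adjusted p = 0.0318). For Fosl2, by the probe used for the gene, the intervals of the difference were -0.23 to 0.37 for C3H minus B6, -0.14 to 0.46 for F1 minus B6 and -0.20 to 0.39 for F1 minus C3H. For Fos they were -0.19 to 0.97, -0.62 to 0.54 and -1.01 to 0.15, and for Atf3 they were wider, -1.17 to 0.36, -0.64 to 0.90 and -0.23 to 1.30. No member was called at 2 h between F1 and B6, where 0.640% of all genes were, or between F1 and C3H, where 0.224% were, and at an unadjusted limma p under 0.05 there were 2 members in each.

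At 24 h the Fosl1 response was 1.36 lower in C3H than in B6 (log2, SE 0.25, interval -1.89 to -0.83, limma adjusted p = 0.00112) and 1.44 higher in F1 than in C3H (SE 0.25, interval 0.91 to 1.97, adjusted p = 0.00432). These were the only members called, beside 19.0% of all genes for C3H minus B6 and 3.83% for F1 minus C3H. F1 and B6 differed by 0.08 (interval -0.45 to 0.61), and no member was called there, beside 2.23% of all genes, nor was any at an unadjusted limma p under 0.05. The mean level in C3H was the highest of the 3 in vehicle (-5.73) and the lowest at 24 h (-6.19), beside -6.06 and -5.17 in B6 and -6.58 and -5.60 in F1. Without C3H 24 h replicate 1 the Fosb response was also called higher in F1 than in C3H (1.00, limma adjusted p = 0.0271), and without B6 vehicle replicate 1 or C3H vehicle replicate 2 that of Jund was called lower in C3H than in B6 (-0.51, adjusted p = 0.00810, and -0.45, adjusted p = 0.0439). With normexp and its offset of 50 units the Fosl1 differences were -0.50 (limma adjusted p = 0.0208) and 0.39 (adjusted p = 0.173). The signals behind them were 16.7 to 46.6 units at 24 h. No slide held both vehicle and 24 h arrays of any strain, and with slide as a fixed term neither difference could be estimated, so slide and treatment cannot be told apart in them.

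**Figure D3:**
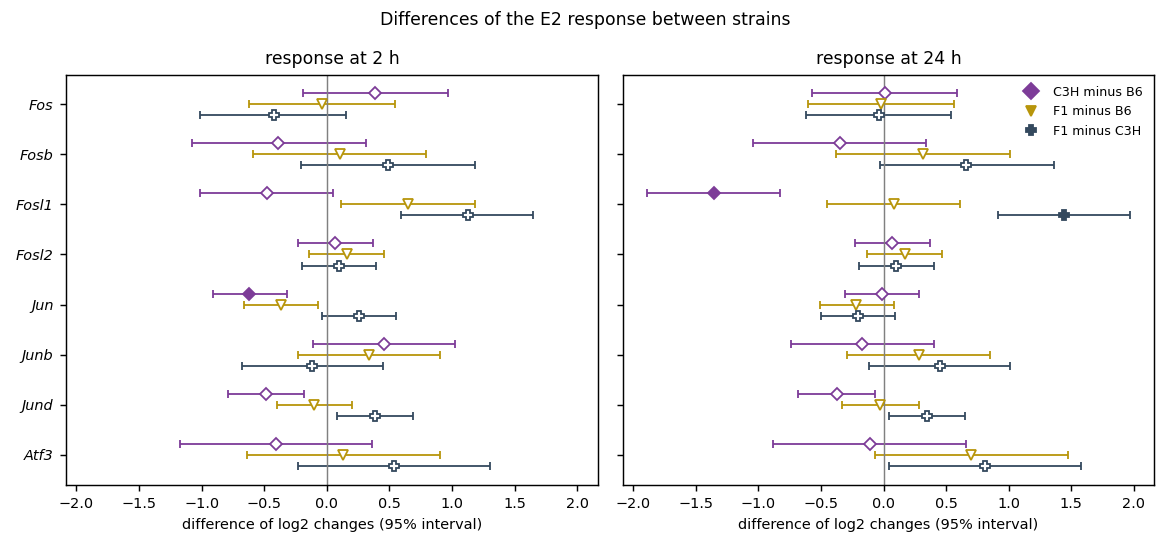
Difference of the estradiol response between strains for each member (x axis, log2, with 95% confidence intervals) at 2 h and at 24 h, for the 3 pairs of strains. Jun at 2 h for C3H minus B6 (-0.62) and Fosl1 at 24 h for C3H minus B6 (-1.36) and F1 minus C3H (1.44) are the called values, drawn as filled symbols.

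Fosl2 has a second probe that did not follow the first. The pair lies on the plus strand of chromosome 5 (mm7), the probe used for the gene at chr5:31189767-31189826 and the second at chr5:31185231-31185290, with starts 4536 bases apart. The first 30 bases of each are printed, from the deposited files, since the strain result below rests on which of them is read. An annotation of that build was not used here, so exon and intron are not given.
Fosl2, probe used for the gene: ttgaggaagaaaatattcagctttgtataa
Fosl2, second probe: gattgctgagctgcagaaggagaaggagaa

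In vehicle the second probe was at -4.15, -4.16 and -4.26 in B6 and at 0.36, -0.80 and -1.10 in C3H, and F1 had -2.14, -2.39 and -1.88, while the probe used for the gene was at -0.23 to 0.15 in all 3 strains. The B6, F1 and C3H arrays did not overlap, with F1 between its parents. The C3H level was 3.68 above B6 (log2, SE 0.37, limma adjusted p = 1.46e-07 over all 32901 probes, 22.8% of which were called), F1 was 2.05 above B6 (adjusted p = 0.000819, 11.1% called) and 1.62 below C3H (adjusted p = 0.00566, 13.0% called). F1 differed from the mid-parent level by 0.22 (adjusted p = 0.839).

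At 2 h the second probe was at -2.43, -2.23 and -2.51 in B6 and at -1.66, -1.69 and -1.87 in C3H, and F1 had -1.83, -1.65 and -2.07. The 3 strains had come close together, by a rise of 1.80 in B6 (limma adjusted p = 0.000325) and a change of -1.22 in C3H (adjusted p = 0.00767), with 0.29 in F1 (adjusted p = 0.536), beside 56.1%, 60.5% and 59.3% of probes called. The 2 h response of this probe was 3.02 lower in C3H than in B6 (SE 0.53, adjusted p = 0.00274, 1.93% of probes called), where the probe used for the gene gave 0.07 with an interval of -0.23 to 0.37. At 24 h it was at -4.43, -4.33 and -4.36 in B6 and at -1.28, -3.40 and -1.59 in C3H, and F1 had -2.45, -2.16 and -2.30. The C3H arrays were spread over more than those of any other 24 h group and spanned all F1 arrays, and the B6 arrays were below both. From 2 h to 24 h this probe changed by -1.98 in B6 (limma adjusted p = 7.77e-05), -0.35 in C3H (adjusted p = 0.409) and -0.46 in F1 (adjusted p = 0.285). Against vehicle its change at 24 h was -0.18 in B6 (limma adjusted p = 0.683), -1.58 in C3H (adjusted p = 0.000946) and -0.17 in F1 (adjusted p = 0.705). A mean of both probes in place of the brighter one made the 2 h response of Fosl2 differ between C3H and B6 by -1.48.

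**Figure D4:**
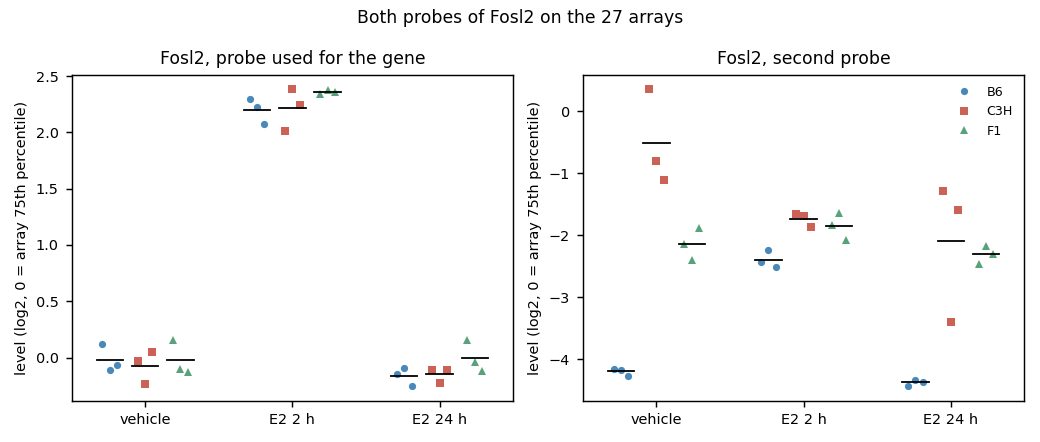
Level on each array (y axis, log2 relative to the 75th percentile of the array) of the 2 Fosl2 probes by strain and treatment, with means of 3. The probe used for the gene shows the same rise at 2 h in the 3 strains, and the second probe separates B6, F1 and C3H in vehicle, at means of -4.19, -2.14 and -0.52.

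The wider AP-1 pathway was followed in 4 lists. Over all genes, 22.7%, 23.9% and 22.9% were called higher at 2 h in B6, C3H and F1 and 34.2%, 37.2% and 36.9% lower, and at 24 h 30.8%, 26.9% and 31.6% were higher and 37.3%, 40.4% and 36.9% lower, against which the counts below are to be read. The first holds 24 other basic leucine zipper genes, which pair with AP-1 proteins or share their sites: at 2 h, 12 of these rose in B6 and 13 in each of C3H and F1, while 8, 7 and 7 fell, with median changes of 0.344, 0.559 and 0.482 (log2). At 24 h 3 of the list were higher in each strain, and 13 were lower in B6, 14 in C3H and 10 in F1. The leading 5 at 2 h were Cebpb (3.00 in B6, 3.32 in C3H and 3.28 in F1), an acute-phase regulator that is also needed in the uterus for decidualisation, Nfil3 (2.94, 3.06 and 2.95), Jdp2 (2.31, 2.53 and 2.54), a repressor that pairs with Jun, the small Maf gene Maff (2.37, 2.35 and 2.48) and Atf4 (2.37, 2.33 and 2.41). At 24 h Maff was below vehicle, at -1.36 in B6, -1.73 in C3H and -1.08 in F1.

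Of 25 measured kinases and promoter factors that act upstream of Fos and Jun, 11 were higher in each strain at 2 h, and 10 were lower in B6, 9 in C3H and 9 in F1 (medians 0.192, 0.088 and 0.124). At 24 h 10 were higher in each strain, with 8 lower in B6 and 6 in C3H and in F1. Map2k1, which encodes the ERK kinase MEK1, rose by 1.91 in B6, 1.87 in C3H and 1.89 in F1, and Srf, the serum response factor that binds the CArG box, rose by 1.93, 1.57 and 1.91. Mrtfb, which encodes a coactivator of Srf, rose by 0.67, 1.02 and 0.74. Map3k8 and Map2k6, which encode kinases of the ERK and p38 cascades, changed by -1.77, -1.15 and -1.64 and by -0.67, -1.14 and -1.17.

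Among 13 genes for turnover of AP-1 RNA and protein, 7 were higher at 2 h in B6, 8 in C3H and 7 in F1, and 1 was lower in each (medians 0.198, 0.196 and 0.222). The numbers at 24 h were 6, 5 and 6 higher and 4, 6 and 6 lower. Zfp36, which encodes tristetraprolin, a protein that destabilises mRNAs with AU-rich elements such as that of Fos, rose by 2.25, 2.57 and 2.32, and its changes at 24 h were -0.84 in B6, -0.43 in C3H and -0.36 in F1. Its relative Zfp36l2 rose by 1.20, 0.51 and 0.90, the single member of this list whose 2 h response was called between C3H and B6 (-0.69, limma adjusted p = 0.00457), as for Jun. The member that fell was Det1, which encodes part of a ubiquitin ligase for c-Jun, with changes of -0.31, -0.36 and -0.28.

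Of 26 measured textbook AP-1 targets, the number higher at 2 h was 13 in B6, 15 in C3H and 14 in F1 and the number lower was 4, 6 and 5, at medians of 0.733, 0.843 and 0.621. Vegfa, an angiogenic factor, rose by 3.34, 3.03 and 2.93, Plaur, the urokinase receptor, by 2.88, 2.80 and 2.95 and Dusp1, a phosphatase of MAP kinases, by 2.42, 2.23 and 2.12. The cytokine Il6 rose by 1.59, 3.20 and 3.08 (SE 0.54), and Ezr, which encodes the membrane linker ezrin, by 1.52, 1.71 and 1.72. The list split at 24 h, when 9, 6 and 10 genes were higher and 9, 11 and 8 lower (B6, C3H and F1). Plaur was still above vehicle by 1.43, 1.03 and 1.62 and Ezr by 1.24, 0.93 and 1.06, and Dusp1 was below it, with changes of -0.93, -0.71 and -0.89. Vegfa changed by -0.08, -0.36 and -0.67, called lower in C3H and F1. Il6 was called above vehicle in F1 alone (2.41, limma adjusted p = 0.00056), beside 0.07 in B6 and -0.01 in C3H.

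**Figure D5:**
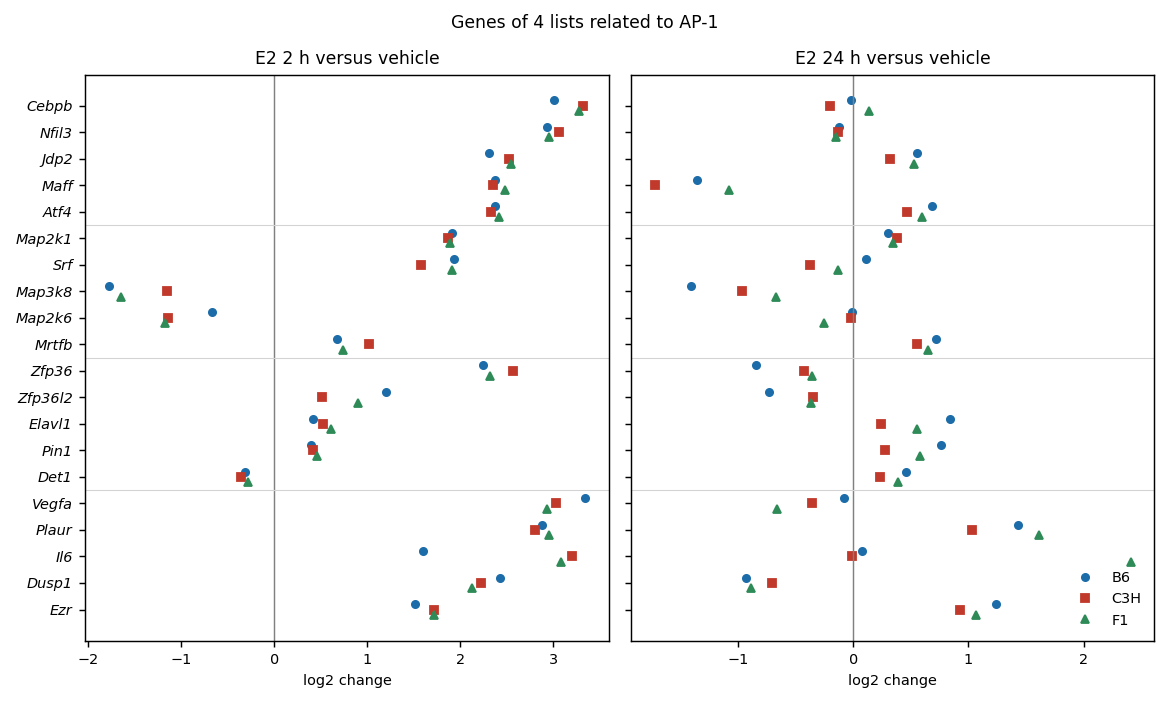
Change against vehicle (log2) at 2 h and at 24 h of the 5 leading genes of each of the 4 related lists in the 3 strains. Most of the genes that rose at 2 h were closer to vehicle at 24 h, as Cebpb was (3.00 at 2 h in B6), and Plaur kept a change of 1.43 there.

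Hbegf was the single textbook target whose 2 h response was called between strains, and it is named after its values were seen. It encodes a growth factor that binds the EGF receptor and takes part in implantation. In vehicle it was at -0.02, 0.26 and 0.29 in B6 and 4.22, 4.26 and 4.16 in C3H, and F1 had 3.42, 3.55 and 3.48, and at 2 h it was at 3.37, 3.14 and 3.05 in B6 and 3.81, 3.83 and 3.88 in C3H, and F1 had 3.59, 3.53 and 3.38. The B6 arrays were the only ones low in vehicle, and at 2 h the strains were within 1 log2 unit of each other. The response was 3.01 in B6, -0.37 in C3H and 0.02 in F1, a difference of -3.38 for C3H minus B6 (limma adjusted p = 7.19e-14) and of -3.00 for F1 minus B6 (adjusted p = 1.55e-12). One probe passed for this gene.

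Genes whose 9 group means were most like those of a member, by Pearson r over the 9 groups, are given as a description. For Fos they were Cnnm4 (r = 0.9992), Map7d1 and Mylk2, for Fosb Asic1 (0.9984), Map7d1 and Pgf, and for Fosl1 Smcr8 (0.9968), Prmt6 and Gja1. For Fosl2 they were Nfil3 (0.9991), Mtcl1 and Cebpb, for Junb Cebpb (0.9978), Arf2 and Sertad1, for Jund Coq10b (0.9975), Nol4l and Pgf, and for Atf3 Spsb1 (0.9974), Tiparp and Dennd2a. Jun was closest to Taf7 (0.9948), Arhgap39 and Gdf1. Within the family Jun stood somewhat apart, with r of 0.801 to 0.927 to the other members, which correlated with each other at 0.960 to 0.996. Most of each r rests on the distance between the 2 h groups and the rest.

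The tissue markers moved with time too, and their part in the members' changes was not tested. Of 5 markers of uterine epithelium, 3 were lower at 2 h in B6, 3 in C3H and 2 in F1, and all 5 were higher at 24 h in each strain. Their summed signal, in units of the array's 75th percentile, was 101.0 to 126.0 over the vehicle arrays, 72.2 to 98.9 at 2 h and 180.6 to 246.4 at 24 h, none of the markers being at 0. Of 5 stromal markers 4 were lower at 2 h in each strain (sum 323.0 to 397.7 in vehicle, 244.8 to 293.2 at 2 h, 297.9 to 380.8 at 24 h), and of 5 smooth muscle markers 4 in B6, 4 in C3H and 5 in F1 were higher at 24 h (319.0 to 438.8, 350.0 to 443.0 and 492.5 to 598.8). In each strain the epithelial and stromal sums were lower at 2 h than in vehicle, and the smooth muscle sums overlapped vehicle. The sum of 2 measured red cell markers was higher at 2 h in each strain, as in B6 (17.4 to 25.2 against 9.96 to 15.1 in vehicle). Ovarian markers stayed at sums of 0.0395 to 0.247 over all arrays, while adipocyte markers ran from 0.219 to 71.97 and liver markers from 0.140 to 15.4, highest in B6 vehicle.

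The 75th percentile of the processed signal was 1211 to 1579 units over the 27 arrays, 72.9% to 79.9% of spots were well above background, and arrays of one group correlated at 0.9879 to 0.9965 across probes. No member's spot was saturated. Of all genes, 435 on B6 vehicle replicate 1 and 482 on C3H 24 h replicate 1 lay more than 1 log2 unit from the mean of their group, against 79 to 298 on the other arrays. All 8 members were above their group mean on both of these arrays, by 0.235 and 0.208 on average. Without both, the 2 h and the 24 h against 2 h calls were kept for all 8 members, 4 members were called higher at 24 h in B6 and 0 in C3H, and 2 had a smaller 2 h response in C3H than in B6.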

How the data were processed

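Uterine RNA of 27 samples was measured on 1-colour Agilent 4x44K mouse arrays. Per the file headers, the authors scanned the arrays and extracted spot intensities with Feature Extraction (version 9.5 per the submitters' processing notes), and the processed signal is background-subtracted intensity. The deposited value table held the same processed intensity in all 27 columns (45018 spots each). Scaling between arrays was not given in the sources used here.

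Control spots (1639 an array) and outlier spots (48 to 117) were left out, spots of a probe were averaged as log2, and the log2 75th percentile of each array was subtracted. Probes were named through accessions, symbols or synonyms in a RefSeq table. A gene was kept if the scanner software marked a probe as well above background on every one of the 3 arrays of some group, and the brightest such probe stood for it. Missing values touched 46 genes. One limma (3.58.1, R 4.3.3) model of 9 group means, with 18 residual and 1.95 prior degrees of freedom, gave 21 comparisons. Comparisons that share arrays are not independent of each other. The number of arrays limits the precision.

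The related lists held transcription partners, upstream factors, turnover genes and targets, and named genes are the 5 with the largest mean change among those called with one sign in all strains at 2 h. The members, lists and tests were chosen with earlier results of these data known. Alternatives covered scaling, background correction, filters, probe choice, slide, replicate number and arrays left out. Motifs were counted in promoter sequences of the RefSeq table. Markers of 14 cell types and tissues were summed. Protein sequences and the Fosl1 promoter were not used here.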

Additional observations from a re-analysis of the deposited data

Results flagged for a closer look

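The size of the Jun rise at 2 h differed between 2 strains by the test of the difference itself, with -0.62 for C3H minus B6 (log2, limma adjusted p = 0.0209). Jun was lower at 2 h on all 3 C3H arrays than on all 3 B6 arrays, and in vehicle the strains overlapped. The share of all genes with such a separation at 2 h was not counted.

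Fosl1 at 24 h differed by -1.36 for C3H minus B6 (limma adjusted p = 0.00112) and by 1.44 for F1 minus C3H (adjusted p = 0.00432), by the same kind of test. All 3 B6 arrays and all 3 F1 arrays at 24 h were above vehicle of their strain, as for 32.5% and 34.9% of all genes. In C3H 1 of 3 was above the lowest vehicle array.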

How the results depend on the processing

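The alternatives read the probe used for each gene or the mean of its probes. With these, the rise of all 8 members at 2 h kept its direction and call in each of 421 values. So did the fall between 2 h and 24 h, also in each of 421 values. The values at 2 h ran from 0.53 to 5.77 (log2), with a highest limma adjusted p of 0.0269. The changes against vehicle at 24 h and the strain differences moved more. The second Fosl2 probe alone was not among the alternatives. It changed by 1.80 in B6, -1.22 in C3H and 0.29 in F1 at 2 h, and by -1.98, -0.35 and -0.46 from 2 h to 24 h. Of counts of members called, 436 of 476 stayed within 1.5 times of the reported one, and 40 did not.

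Members called higher at 24 h in B6, 1 as reported, were 4 with median centring, 3 with quantile normalization, 3 without scaling, 2 with slide as a fixed term and 4 without the arrays B6 vehicle replicate 1 and C3H 24 h replicate 1, which was chosen after seeing the data. With the replicate number as a block there were 2 (Fos 0.44, adjusted p = 0.0474). In C3H the 1 member higher became 0 with normexp, 0 with no filter on dim probes and 0 without those arrays. In F1 the 2 higher became 4 with median centring, 4 without scaling, 0 with normexp and 1 when every array had to be well above background, which removes Fosl1. Members lower at 24 h in B6, 2 as reported, were 4 with quantile normalization and 1 with slide fixed, and the 1 lower in F1 became 2 with quantile normalization.

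For the 2 h response in C3H minus B6, the 1 lower member became 2 with quantile normalization, 2 with the mean of a gene's probes, 2 without those arrays and 0 without scaling. In F1 minus C3H at 2 h, 0 became 1 without those arrays. For the 24 h response, the 1 higher member in F1 minus C3H became 2 without scaling, 2 without those arrays, 0 with normexp and 0 with every array well above background. The 1 lower in C3H minus B6 became 3 without those arrays and 0 with every array well above background.

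In vehicle, 0 members higher in C3H than B6 became 1 without scaling, 1 with the mean of probes and 1 without those arrays. Between F1 and B6, 0 higher became 1 with the mean of probes and 0 lower became 1 without scaling. The 1 lower in F1 than C3H became 2 without scaling, 2 with the mean of probes, 2 without those arrays, 0 with normexp and 0 with every array well above background. The 1 below the mid-parent level became 0 with quantile normalization, 0 with normexp and 0 with every array well above background.

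Leaving out each array in turn gave 0 to 1 higher and 0 to 2 lower for the 2 h response in F1 minus C3H and in C3H minus B6. It gave 1 to 2 higher and 1 to 2 lower for the 24 h response in F1 minus C3H and in C3H minus B6. At 24 h it gave 1 to 3 higher in B6, 0 to 1 higher and 2 to 3 lower in C3H and 1 to 3 higher in F1. In vehicle it gave 0 to 1 higher in C3H than B6 and in F1 than C3H, 0 to 1 lower in F1 than B6 and 0 to 1 below the mid-parent level.

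Of 1883 values of single members under alternatives other than single arrays left out, 1757 kept direction and call, 16 lost their call, 33 gained one and 77 turned sign, 71 of these being called in neither analysis. Among those, slide as a fixed term gave -0.26 for Jund and 0.42 for Atf3 in vehicle, C3H minus B6, and -0.14 for Jund at 24 h in B6, and the mean of both Fosl2 probes gave -0.68 for its 2 h response in F1 minus B6. The other 6 turned with a call in the alternative. The mean of both Fosl2 probes gave -1.48 for the 2 h response in C3H minus B6 and 1.81, 1.02 and -0.79 in vehicle for C3H minus B6, F1 minus B6 and F1 minus C3H, through the second probe. Quantile normalization gave -0.24 in B6 and -0.20 in F1 for Jund at 24 h, and the cause was not tested.

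Median centring moved the median of all genes by 0.155 in C3H and 0.152 in F1 at 2 h and by 0.24, 0.195 and 0.209 at 24 h in B6, C3H and F1, and the share of calls that were higher from 39.0% to 53.0% and 38.3% to 51.7% at 2 h and from 45.2% to 60.8%, 40.0% to 54.8% and 46.1% to 59.9% at 24 h. Without scaling the shares were 56.2% and 60.6% at 2 h in C3H and F1 and 49.9% and 58.3% at 24 h. For the 2 h response in C3H minus B6 the share higher was 33.9%, and 45.6% with median centring, 57.9% without scaling and 45.7% with quantile normalization, and for the 24 h response in F1 minus C3H it was 80.8%, 94.0% without scaling and 70.1% with quantile normalization.

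Slide as a fixed term could be estimated for 7 of 21 comparisons, and as a random block (correlation 0.00555) it changed no member's call. Replicate numbers showed no clear pairing of the samples. Over 27 pairs of same-numbered arrays of a strain the deviations correlated at -0.124 to 0.169, and 5 pairs were over 0.1. Over all 108 pairs of same-numbered arrays the median r was 0.012, with a range of -0.257 to 0.344 and 23 over 0.1. Normexp took its background from negative control spots, chosen after seeing the data, because its own fit gave a background mean far below 0 on 7 arrays. An offset of 50 units was then added to each signal, so smaller changes of dim probes with normexp are in part set by that offset. Low signal limits Fosl1, at 11.98 to 46.6 units outside the 2 h groups.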
